A study of Homo sapiens with 12 samples.

Results

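Transcripts of 12 families of developmental transcription factors (SOX, GATA, TBX, PAX, LHX, IRX, DLX, MSX, FOX, PITX and MEIS, and the sine oculis homeobox family to which SIX2 belongs) were followed after knockdown of PHF19 in 2 triple-negative breast cancer lines. A gene was a member when its name in the authors' deposited tables was exactly the prefix of 1 of these families followed by a number, or, for FOX, by a letter and a number. This gave 125 members among the 29972 gene rows of each table: 44 FOX, 19 SOX, 13 TBX, 9 PAX, 8 LHX, 3 PITX, 3 MEIS, 2 MSX, 6 sine oculis and 6 each of GATA, IRX and DLX. Messenger RNA was sequenced from MDA-MB-436 cells and from BoM-1833 cells, a derivative line that had been selected for its spread to bone. The parent of BoM-1833 is not named here, and the 2 lines are not compared as parent and derivative. In each line a control group received siNT, a pool of non-targeting small interfering RNAs (siRNAs), and a treated group siPHF19, an equal mixture of 2 siRNAs against PHF19. Every group, controls included, was transfected with 5 nM siRNA in total, grown in the same medium with serum, and used 72 h later. There were 12 libraries, 3 for each of the 4 groups. The labels do not say that these came from separate cultures, so p-values measure the spread between libraries, which may be technical. The knockdown was transient, the 2 PHF19 siRNAs were not given singly, and they came from another supplier than siNT, so that effects of the target and of the reagent cannot be told apart.

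PHF19 is an accessory subunit of Polycomb repressive complex PRC2, which methylates lysine 27 of histone H3 and keeps genes repressed. Polycomb-like subunits such as PHF19 bind unmethylated DNA rich in CpG dinucleotides (a C followed by a G) and help bring the complex to such sites. Transcription factors that lay down the body plan are textbook targets of the complex: many are off in a given adult cell type, and many start within CpG-rich DNA. Only RNA was measured here, so no statement about the histone mark at these genes is made.

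The DNA just before the start is shown for 3 members, as examples of a gene that rose, one that fell and one without reads. SIX2 was called higher in both lines, FOXQ1 had the largest decrease of any called member in MDA-MB-436, and SOX1 had no read in any library. Each sequence is the 250 bases upstream of the start, 5′ to 3′ on the gene's strand, from RefSeq (GRCh38.p14), with every CG in capitals. The windows are chr2:45009453-45009702 (minus strand) for SIX2, chr6:1311848-1312097 (plus strand) for FOXQ1 and chr13:112066899-112067148 (plus strand) for SOX1. The gene positions used elsewhere come from GENCODE 29 and begin further downstream, at 45009430 (SIX2), 1312440 (FOXQ1) and 112067647 (SOX1).
SIX2: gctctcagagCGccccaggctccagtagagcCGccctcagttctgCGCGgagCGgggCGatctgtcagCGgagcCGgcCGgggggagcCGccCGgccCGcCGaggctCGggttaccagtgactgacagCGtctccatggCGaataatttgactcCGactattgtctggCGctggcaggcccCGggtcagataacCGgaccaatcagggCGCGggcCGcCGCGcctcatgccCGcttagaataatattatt
FOXQ1: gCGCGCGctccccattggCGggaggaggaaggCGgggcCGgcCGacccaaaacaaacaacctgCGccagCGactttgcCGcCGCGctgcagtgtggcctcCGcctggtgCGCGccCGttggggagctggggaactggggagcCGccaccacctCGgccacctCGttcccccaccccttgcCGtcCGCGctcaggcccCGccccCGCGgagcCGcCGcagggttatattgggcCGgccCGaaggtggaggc
SOX1: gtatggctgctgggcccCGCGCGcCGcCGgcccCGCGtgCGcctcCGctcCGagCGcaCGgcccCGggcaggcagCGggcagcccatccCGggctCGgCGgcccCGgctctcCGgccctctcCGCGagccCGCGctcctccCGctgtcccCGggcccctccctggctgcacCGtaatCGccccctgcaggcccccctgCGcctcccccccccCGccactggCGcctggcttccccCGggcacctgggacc
They hold 26, 29 and 31 CGs in turn. CG reads the same on both strands. Across all 35116 RefSeq windows the same 250 bases held at least 1 CG in 93.9%, with a median of 11 (quartiles 3 and 23). All 3 thus had more CGs here than 3 in 4 windows. Not every member did: FOXI1, also called higher in MDA-MB-436, held 14. The windows cover transcribed and silent genes alike, so these counts do not set members apart from transcribed genes in general. A comparison of silent with transcribed members on this measure is void, since only 87 of the 125 members (69.6%) had a window in the table.

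The knockdown and the identity of the lines were checked first. The level of PHF19 was 3353 ± 411 normalized counts in siNT and 327 ± 12.8 in siPHF19 of MDA-MB-436 (mean and SD, n = 3). For BoM-1833 the values were 1688 ± 20.9 and 185 ± 14.2 (mean and SD, n = 3). A normalized count is the number of reads divided by the library's size factor. The libraries of MDA-MB-436 held 15.2 to 24.01 M reads in genes and those of BoM-1833 13.7 to 21.3 M, with siPHF19 shallower in the latter (14.8 ± 1.55 against 18.9 ± 2.01 M, SD, n = 3). Of the receptors whose absence defines triple-negative cancer, ESR1 and PGR reached at most 3.97 normalized counts in any library, and ERBB2 lay between 932 and 1179. KRT8 and KRT18 were called higher in both lines, CDH2 and KRT17 higher in MDA-MB-436, and VIM and ZEB1 lower in BoM-1833, in the authors' deposited tables. Of 3 markers of other cells, ALB was at 0 or 1 read in every library, PTPRC at most 21.2 and PECAM1 at most 404 normalized counts. The summed level of these 3 markers spanned 22.5 to 36.02 (siNT) and 13.1 to 25.7 (siPHF19) in the libraries of MDA-MB-436; those of BoM-1833 spanned 295 to 424 and 305 to 401. The part of these marker changes in the results on family members was not tested.

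A member was counted as silent when its mean over the 6 libraries of a line was under 10 normalized counts. In MDA-MB-436 54 of 125 members were silent, 23 of them without a single read, and 71 were transcribed. In BoM-1833 71 were silent, 42 of them without a read, and 54 were transcribed. The families differed in how many members were on: in MDA-MB-436 both MSX genes, all 3 MEIS genes and 5 of the 6 sine oculis genes were transcribed, against 2 of 6 IRX genes and 3 of 9 PAX genes. In BoM-1833 the MEIS family (3 of 3) and the sine oculis family (5 of 6) were again mostly on, while 1 of 6 DLX genes, 1 of 6 IRX genes and no MSX gene passed the threshold. Sine oculis factors act in muscle, kidney and sensory organ precursors, and MEIS proteins are homeodomain partners of HOX factors.

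**Figure D1:**
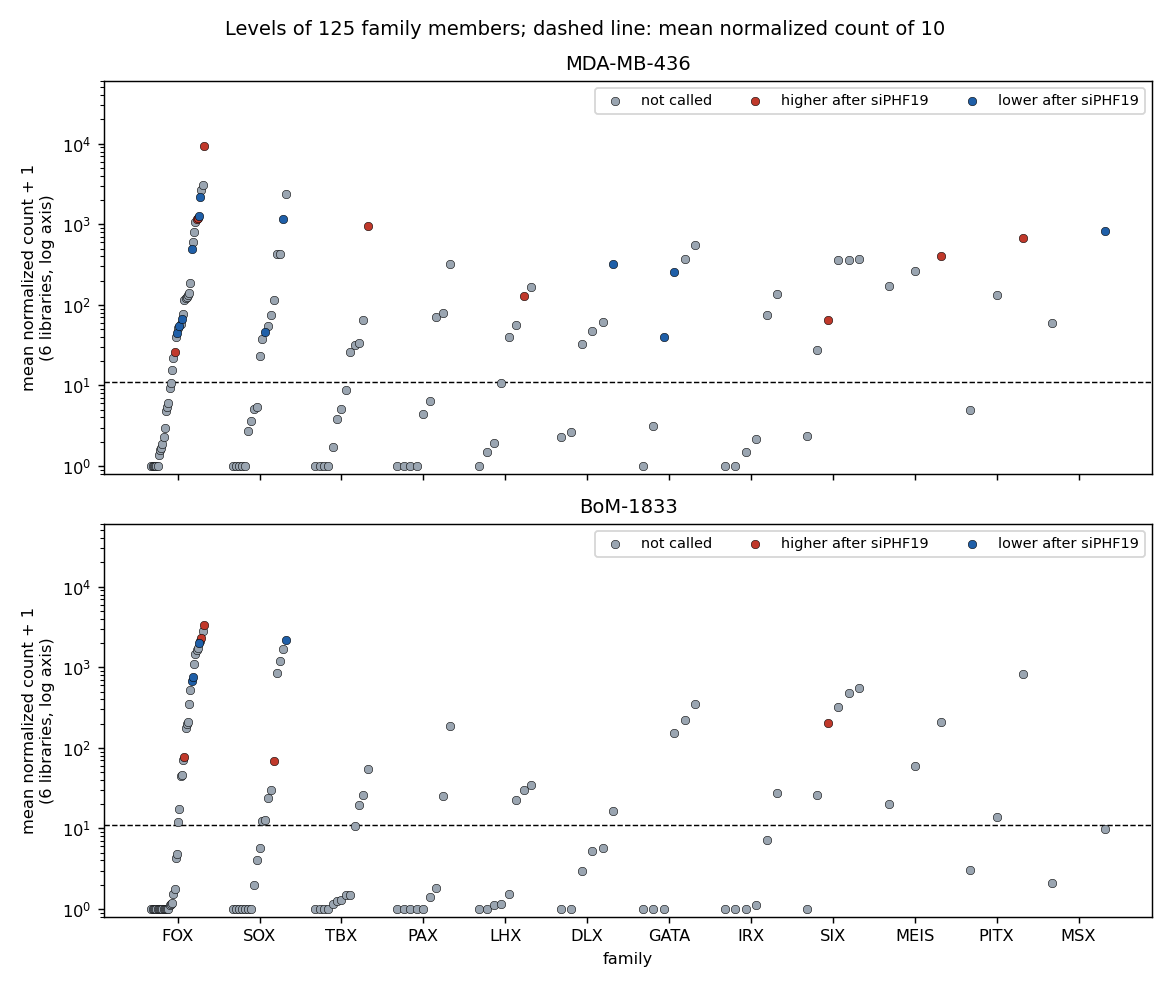
Mean normalized count plus 1 over the 6 libraries of a line (log axis) for each of the 125 members, grouped by family, with members of a family in ascending order. Points on the floor of the axis had no reads; the dashed line marks the mean of 10 below which members were silent (54 for MDA-MB-436, 71 for BoM-1833), and colours mark the members called higher or lower after siPHF19.

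The 2 lines kept different members on. 44 members were transcribed in both and 44 were silent in both, of which 17 had no read in any of the 12 libraries. These 17 are FOXI2, FOXL2, FOXN1, GATA1, IRX2, LHX8, PAX1, PAX3, PAX7, SOX1, SOX10, SOX11, SOX14, TBX5, TBX10, TBX21 and TBX22, among them master regulators of blood (GATA1), muscle (PAX3, PAX7), neural crest (SOX10) and T cells (TBX21). MDA-MB-436 alone transcribed 27 members, including FOXF1, FOXL1, GATA4, GATA5, PAX6, SOX8, SOX17, DLX1, MSX1 and TBX18. BoM-1833 alone transcribed 10: FOXA2, FOXA3, FOXD4, GATA3, LHX9, SOX2, SOX6, SOX21, TBX1 and TBX6. Thus 45.7% of the members on in either line were on in 1 line only, against 15.5% of all gene rows. GATA3, which specifies luminal breast epithelium, had 152, 148 and 131 normalized counts in the siNT libraries of BoM-1833 and 4.37, 3.1 and 0 in those of MDA-MB-436. FOXA1, another luminal factor, went the other way, with 38.1, 28.6 and 50.6 in BoM-1833 and 92.8, 89.1 and 100.3 in MDA-MB-436. These 2 genes thus do not mark either line as the more luminal.

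Per kilobase of exon and per M reads, FOXM1, which activates genes of cell division, had the highest siNT level in both lines. In MDA-MB-436 it stood at 94.8 ± 8.92 (SD, n = 3), followed by SOX12 (26.5 ± 1.19), MSX1 (23.3 ± 2.88), SOX9 (19.4 ± 0.917) and FOXJ3 (17.9 ± 0.463). FOXM1 lay far above the rest there. In BoM-1833 FOXM1 (37.7 ± 1.12), FOXA2 (37.5 ± 0.950), FOXQ1 (36.4 ± 3.14) and SOX9 (36.2 ± 1.55, SD, n = 3) were not separated beyond their spread, and FOXP4 came next at 20.6 ± 0.0608. FOXA2, a pioneer factor of endoderm, had no read in MDA-MB-436.

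No gain of reads by silent members as a group was measured after siPHF19. Of the 31 silent members with reads in MDA-MB-436, 17 had a higher mean in siPHF19 and 14 a lower one (54.8%, 95% Wilson interval 37.8% to 70.8%), against 48.5% of the 5900 silent gene rows with reads. Of the 29 in BoM-1833, 12 were higher and 17 lower (41.4%, 95% Wilson interval 25.5% to 59.3%), against 49.5% of 5444 rows. These intervals cover counting error only: they treat members as independent and do not measure the spread between libraries. By the authors' deposited DESeq2 test, 3 silent members were tested in MDA-MB-436 and none in BoM-1833, and 0 were called. At an unadjusted p under 0.05, 0 were higher and 1, TBX1, was lower in MDA-MB-436, and there were 0 of either kind in BoM-1833. With edgeR and no filter on low counts, which tested all 31 and 29 of them, 0 were called higher in either line and 1, again TBX1, was called lower in MDA-MB-436.

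The sums over silent members were no clearer. In MDA-MB-436 the 54 silent members together had 84.0, 105.4 and 115 normalized counts in the siNT libraries and 103.6, 69.6 and 104.6 in the siPHF19 libraries. The groups overlapped, with means of 101.5 ± 15.8 and 92.6 ± 19.9 (SD, n = 3). In BoM-1833 the 71 silent members had 68.3, 52.6 and 51.5 in siNT and 72.5, 57.8 and 60.1 in siPHF19. Here too the groups overlapped, with means of 57.4 ± 9.38 and 63.5 ± 7.92 (SD, n = 3). Reads appeared in siPHF19 libraries only for 1 silent member of MDA-MB-436 and 2 of BoM-1833, and in siNT libraries only for 0 and 8. Over all gene rows the same counts were 941 and 734 for siPHF19 only and 992 and 1053 for siNT only, and in BoM-1833 siPHF19 had 44.4 M reads against 56.8 M in siNT. For the members without reads, 3 reads per group of 44.4 to 56.8 M set an upper limit of 0.0528 to 0.0675 reads per M. Gains below that level were not detectable at this depth.

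**Figure D2:**
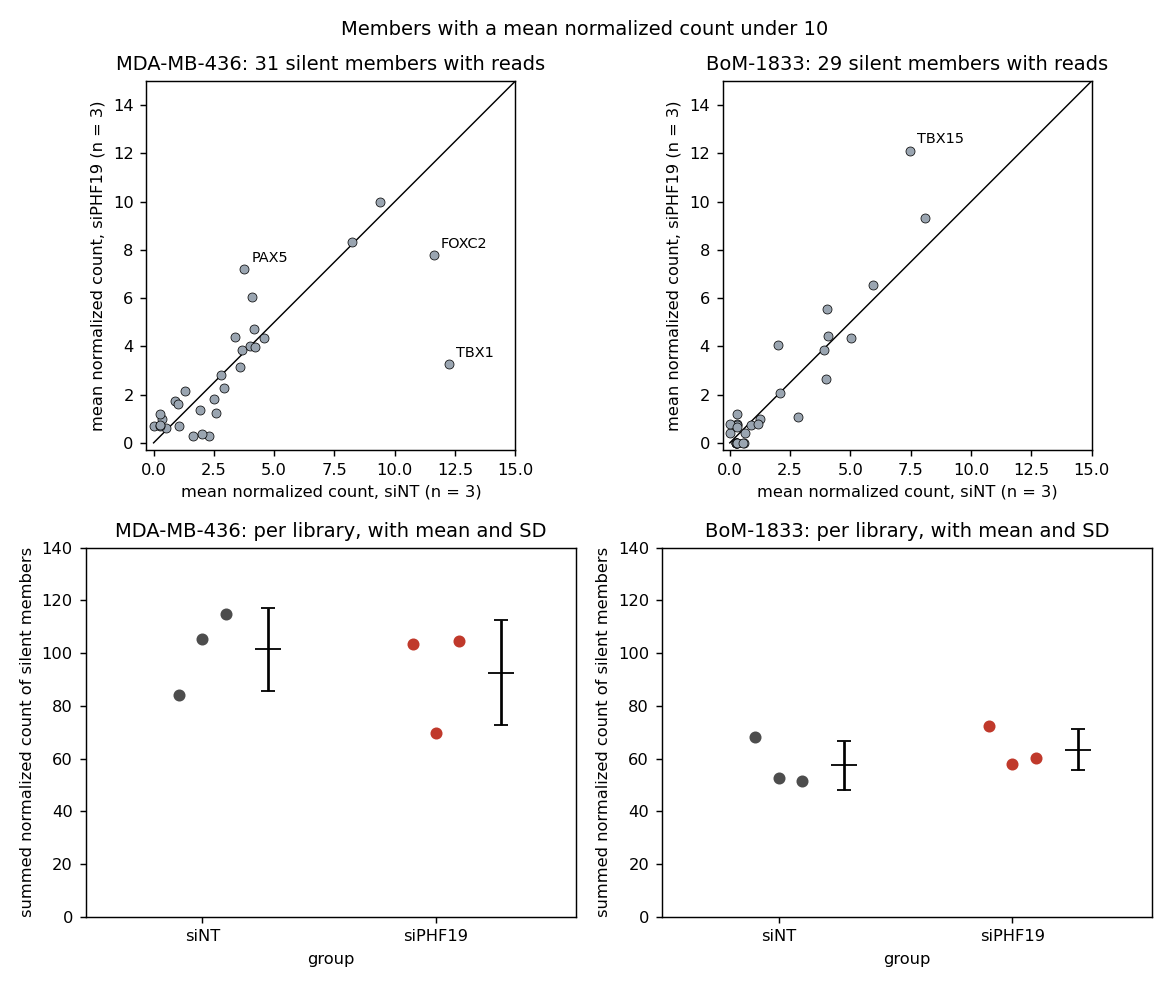
Upper panels: mean normalized count in siPHF19 against siNT (n = 3 each) for each silent member with reads, with the line of equality; named are the 4 whose means differ by 3 or more. Lower panels: normalized counts summed over all silent members, 1 point per library, with mean and SD; sums span 69.6 to 115 for MDA-MB-436 and 51.5 to 72.5 for BoM-1833, and the groups overlap.

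In 4 cases the group means of a silent member differed by at least 3 normalized counts, 2 in each direction. TBX1, a factor of the pharyngeal arches, had 7.64, 13.2 and 15.9 normalized counts in siNT and 5.45, 3.31 and 1.06 in siPHF19 in MDA-MB-436. The groups did not overlap; in BoM-1833, where TBX1 was transcribed, its log2 fold change in the authors' deposited table was -0.15 (adjusted p 0.836, SE 0.28). FOXC2, a forkhead factor of lymphatic vessels and mesenchyme, had 6.55, 12.4 and 15.9 in siNT and 7.63, 8.28 and 7.39 in siPHF19 of MDA-MB-436, with overlap. PAX5, a B cell factor, had 3.27, 3.1 and 4.89 and 9.81, 3.31 and 8.45 in MDA-MB-436, with overlap. TBX15, a limb and skin factor, had 6.35, 5.53 and 10.5 and 14.9, 9.44 and 12.01 in BoM-1833, also with overlap, and was the only silent member whose siPHF19 mean passed 10 (12.1 ± 2.73, SD, n = 3). The threshold of 10 fell between FOXC2 (mean 9.69) and FOXN4 (14.6) in MDA-MB-436 and between TBX15 (9.79) and FOXD4 (10.9) in BoM-1833. FOXD4 has near-identical copies elsewhere in the genome, so its reads are uncertain.

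Among the tested members, changes went both ways. In MDA-MB-436, 21 of 74 tested members (28.4%) had an adjusted p under 0.05 in the authors' deposited DESeq2 table, where 22.1% of all 14243 tested genes did. The 74 are the 71 transcribed members and 3 silent ones (FOXC2, FOXD4 and LHX9), which were not called. Of the 21, 9 were higher and 12 lower, or 12.2% and 16.2% of the members tested, against 10.5% and 11.5% of all genes. In BoM-1833, 9 of 48 tested members (18.8%) were called, against 10.9% of all 12906 genes tested. There 5 were higher and 4 lower, 10.4% and 8.33%, against 5.21% and 5.72% of all genes. The median log2 fold change of tested members in the authors' deposited tables was 0.05 for MDA-MB-436 and 0.06 for BoM-1833, beside -0.00 for all genes in each line. In BoM-1833, 6 transcribed members had no adjusted p. Groups without overlap were common among tested genes. In MDA-MB-436, 20 members were higher and 17 lower without overlap, beside 3011 and 3005 of the 14243 genes. In BoM-1833 the counts were 11 and 10 members, beside 1972 and 2023 of the 12906 genes.

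The 27 members on in MDA-MB-436 alone, all tested there, held 8 of its 21 calls. FOXI1 and TBX18 were higher, and DLX1, FOXF1, FOXL1, GATA5, MSX1 and SOX8 lower. Of the 44 members on in both lines, also all tested there, 7 were higher and 6 lower. Over all genes 22.1% were called in that line. Whether the share of calls differed between these 2 sets of members was not tested. In BoM-1833, SOX6 was the 1 call among the 10 members on in that line alone, 8 of which were tested. The other 8 calls came from the 44 shared members, 40 of which were tested, beside 10.9% of all genes called. None of the 27 members on in MDA-MB-436 alone was tested in BoM-1833. Counts of calls moved with single libraries: without siNT replicate 2, or siPHF19 replicate 1, 2 or 3, 9, 10, 11 and 12 members were called in MDA-MB-436. Without siNT replicate 2, or siPHF19 replicate 1 or 2, 5, 4 and 5 were called in BoM-1833. The share of all genes called moved too, from 12.9% to 26.9% and from 5.99% to 17.03% over the fits without 1 library.

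**Figure D3:**
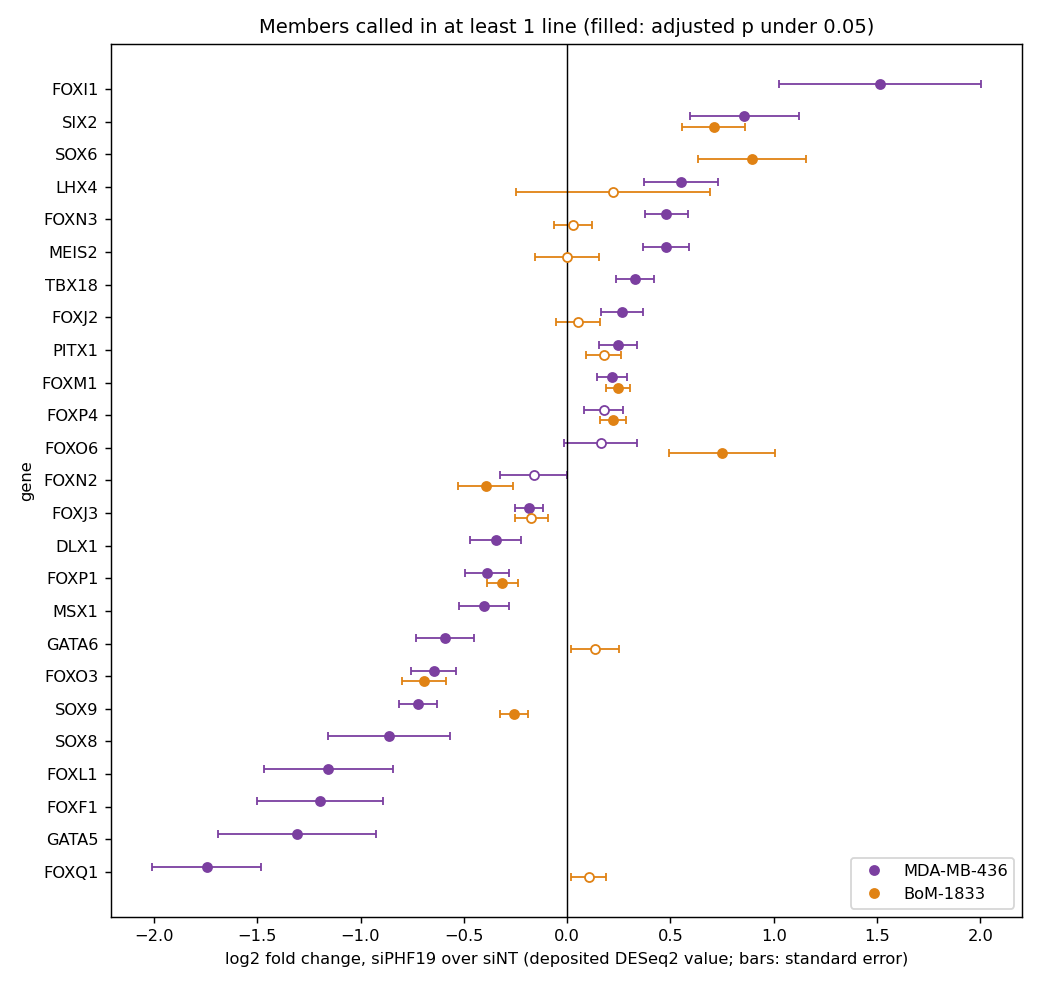
Log2 fold change of siPHF19 over siNT with its standard error, from the authors' deposited DESeq2 tables, for the 25 members called in at least 1 line. Filled points were called, open points were tested and not called, and members without a point in a line were not tested there; FOXM1, SIX2, FOXO3, FOXP1 and SOX9 are filled in both lines.

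5 members were called in both lines, each in the same direction: FOXM1 and SIX2 were higher, and FOXO3, FOXP1 and SOX9 lower. They come from 41 members with an adjusted p in each line, of which MDA-MB-436 had 13 calls and BoM-1833 had 8. The matching count over all genes is not given here, and whether this overlap exceeds that of other genes was not tested. The lines share no library. FOXO3 (chromosome 6, 108559835 to 108684774, plus strand), a forkhead factor that growth factor signalling holds in check, had 1314, 1587 and 1728 normalized counts in siNT and 1038, 987 and 934 in siPHF19 in MDA-MB-436. In BoM-1833 it had 841, 965 and 1041 in siNT and 649, 538 and 569 in siPHF19. All siPHF19 libraries lay below all siNT libraries of their line, and the authors' deposited tables give log2 fold changes of -0.65 (adjusted p 7.43e-08, SE 0.11) and -0.69 (adjusted p 3.96e-09, SE 0.11) by DESeq2. Reads of FOXO3 can be shared with its pseudogene FOXO3B.

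SOX9 (chromosome 17, 72121020 to 72126420, plus strand), which drives cartilage formation and marks epithelial progenitors, fell in both lines by different amounts. In MDA-MB-436 it had 1392, 1417 and 1485 normalized counts in siNT and 879.8, 939 and 779 in siPHF19. In BoM-1833 the values were 2287, 2403 and 2468 and 1961, 1953 and 2083. The groups did not overlap in either line. The authors' deposited tables give -0.72 (adjusted p 3.2e-13, SE 0.09) for MDA-MB-436 and -0.26 (adjusted p 0.00281, SE 0.07) for BoM-1833 (DESeq2), and the latter call was lost without siPHF19 replicate 1 (DESeq2 adjusted p 0.0520) or 2 (0.0685). FOXP1 (chromosome 3, 70952817 to 71583993, minus strand), a repressor with roles in lung, heart and B cells, had 576, 545 and 545 in siNT and 385, 449 and 438 in siPHF19 in MDA-MB-436. Its values in BoM-1833 were 2052, 2367 and 2179 and 1856, 1697 and 1751, again without overlap in either line. For it the authors' deposited tables give -0.39 (adjusted p 0.00289, SE 0.11) and -0.31 (adjusted p 0.000721, SE 0.08) by DESeq2, and the call in MDA-MB-436 was lost without siPHF19 replicate 1 (DESeq2 adjusted p 0.0941).

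SIX2 (chromosome 2, 45005161 to 45009430, minus strand), which keeps kidney progenitors undifferentiated, had 44.8, 41.9 and 50.1 normalized counts in siNT and 94.8, 66.3 and 86.6 in siPHF19 in MDA-MB-436. In BoM-1833 it had 152, 172 and 139 and 264, 249 and 243. Every siPHF19 library was above every siNT library of its line, with log2 fold changes of 0.86 (adjusted p 0.00754, SE 0.26) and 0.71 (adjusted p 0.000102, SE 0.15) in the authors' deposited DESeq2 tables. The call in MDA-MB-436 was lost without siNT replicate 2 or siPHF19 replicate 1 or 3 (DESeq2 adjusted p up to 0.127). FOXM1 (chromosome 12, 2857681 to 2877155, minus strand) rose less: siNT and siPHF19 had 8707 ± 689 and 10111 ± 155 normalized counts for MDA-MB-436, and 3094 ± 84.7 and 3669.7 ± 85.1 for BoM-1833 (mean and SD, n = 3). The authors' deposited DESeq2 tables give it 0.22 (adjusted p 0.018, SE 0.07) and 0.25 (adjusted p 0.000895, SE 0.06) as log2 fold changes, and the former call was lost without siNT replicate 2 or any 1 of the siPHF19 replicates (DESeq2 adjusted p up to 0.137). FOXM1 overlaps ITFG2 and RHNO1 on the other strand, and whether counting used strand is not given in the sources used here.

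**Figure D4:**
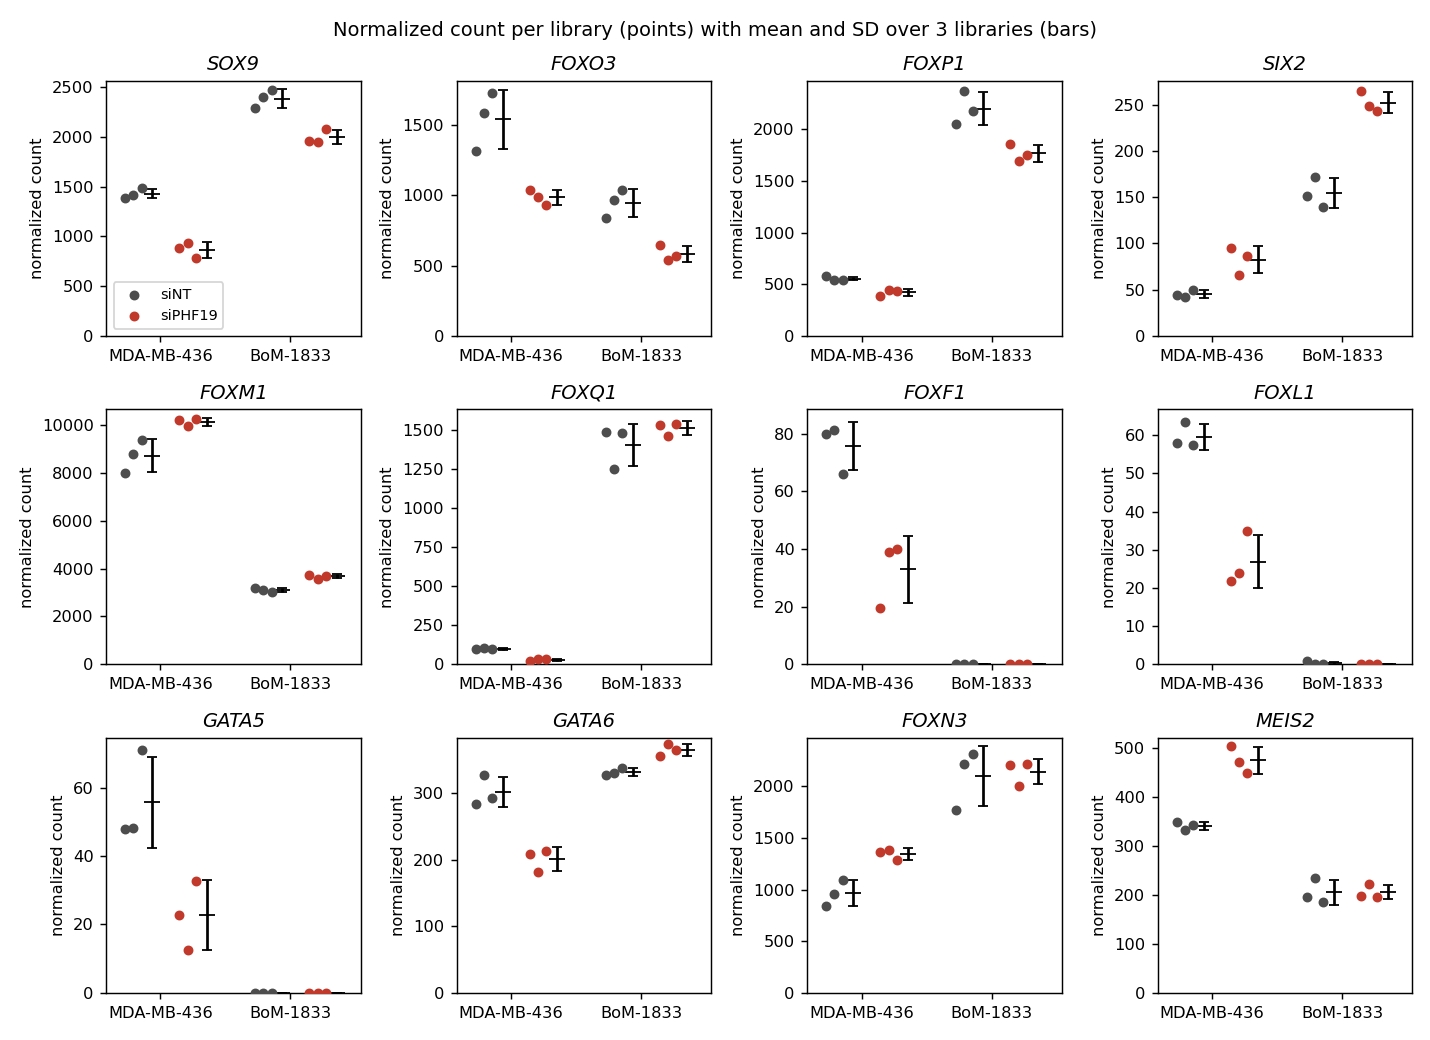
Normalized count in each of the 12 libraries (points) with mean and SD over 3 libraries (bars) for 12 called members, each axis starting at 0. The first 5 panels show members called in both lines; FOXQ1, GATA6, FOXN3 and MEIS2 were called in MDA-MB-436 and not in BoM-1833, while FOXF1, FOXL1 and GATA5 are at or near 0 in BoM-1833.

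The forkhead family, whose members share the winged-helix DNA-binding domain, held 10 of the 21 calls in MDA-MB-436 (4 higher, 6 lower of 29 tested) and 6 of the 9 in BoM-1833 (3 higher, 3 lower of 20 tested). That is 34.5% of its tested members in the former line, against 22.1% of all genes, and 30.0% in the latter, against 10.9%. FOXQ1 (chromosome 6, 1312440 to 1314748, plus strand), a factor tied to epithelial-mesenchymal transition, had the largest change of any called member in MDA-MB-436, with 97.1, 108 and 96.6 normalized counts in siNT and 23.98, 33.96 and 31.7 in siPHF19. The groups were far apart, and the authors' deposited DESeq2 table gives -1.74 (adjusted p 1.61e-09, SE 0.26). In BoM-1833, where it was far more abundant, FOXQ1 had 1489, 1250.5 and 1482 in siNT and 1535, 1461 and 1541 in siPHF19, which overlapped (0.10 (adjusted p 0.54, SE 0.08) in the authors' deposited DESeq2 table). FOXF1 and FOXL1, factors of gut and lung mesenchyme, also fell in MDA-MB-436. FOXF1 (chromosome 16, 86510527 to 86515418, plus strand) had 79.7, 81.4 and 66.04 in siNT and 19.6, 38.9 and 40.1 in siPHF19, and FOXL1 (chromosome 16, 86576368 to 86582160, plus strand) had 57.9, 63.6 and 57.5 and 21.8, 24.02 and 34.9. Neither pair of groups overlapped, with -1.20 (adjusted p 0.000982, SE 0.31) for FOXF1 and -1.16 (adjusted p 0.00202, SE 0.31) for FOXL1 in the authors' deposited DESeq2 table; the call of FOXL1 was lost without siNT replicate 2 (DESeq2 adjusted p 0.0559).

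Among the forkhead genes that rose in MDA-MB-436, FOXI1, a factor of ion-transporting cells in kidney and inner ear, had 7.64, 6.98 and 25.7 normalized counts in siNT and 33.8, 38.1 and 39.1 in siPHF19. The groups did not overlap, but siNT replicate 3 lay close to the siPHF19 libraries. The authors' deposited DESeq2 table gives 1.51 (adjusted p 0.0127, SE 0.49), a call that was lost in 5 of the 6 fits without 1 library (all but that without siNT replicate 3; DESeq2 adjusted p up to 0.146). FOXI1 had no read in BoM-1833. FOXN3, a repressor linked to cell cycle checkpoints, had 845, 957 and 1098 in siNT and 1367, 1387 and 1284 in siPHF19 of MDA-MB-436, without overlap (0.48 (adjusted p 5.62e-05, SE 0.10), authors' deposited DESeq2 table). Further calls were made for FOXJ2 (0.27) and FOXJ3 (-0.18) in MDA-MB-436 and for FOXP4 (0.22), FOXO6 (0.75) and FOXN2 (-0.39) in BoM-1833, as log2 fold changes in the authors' deposited DESeq2 tables. The calls of these 5 were each lost in 4 or 5 of the 6 fits without 1 library.

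Neighbouring forkhead genes were looked at together, since Polycomb repression can cover stretches of chromosome. On chromosome 16, FOXF1, FOXC2 and FOXL1 lie within 65.8 kb. In MDA-MB-436 the authors' deposited DESeq2 table gives log2 fold changes of -1.20, -0.57 and -1.16 for them, with FOXC2 not called (adjusted p 0.574). The only tested non-member within 500 kb, MTHFSD, which lies between them, was not called (0.03, adjusted p 0.914, authors' deposited DESeq2 table). On chromosome 6, FOXF2 and FOXC1 lie 77.1 and 297.5 kb from FOXQ1. In the authors' deposited DESeq2 table for MDA-MB-436 FOXF2 had -0.48 (adjusted p 0.0571, SE 0.19) and FOXC1 -0.16 (adjusted p 0.683, SE 0.24), neither called, though edgeR called FOXF2 lower. The 1 tested non-member there, GMDS, was not called either (-0.29, adjusted p 0.721, authors' deposited DESeq2 table). In BoM-1833 none of the tested genes of the 2 regions was called. These 2 regions were chosen after their values were seen. In all, 11 groups of members lie within 300 kb of each other, and 5 of them had at least 2 tested members in MDA-MB-436: in the 2 forkhead groups all fold changes were below 0, and in the other 3 they went both ways. SIX2, called higher, lies beside SIX3 (-0.49, adjusted p 0.393), and DLX1, called lower, beside DLX2 (0.55, adjusted p 0.3003) in the authors' deposited DESeq2 table. In BoM-1833 the fold changes had 1 sign in 2 of 4 such groups.

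**Figure D5:**
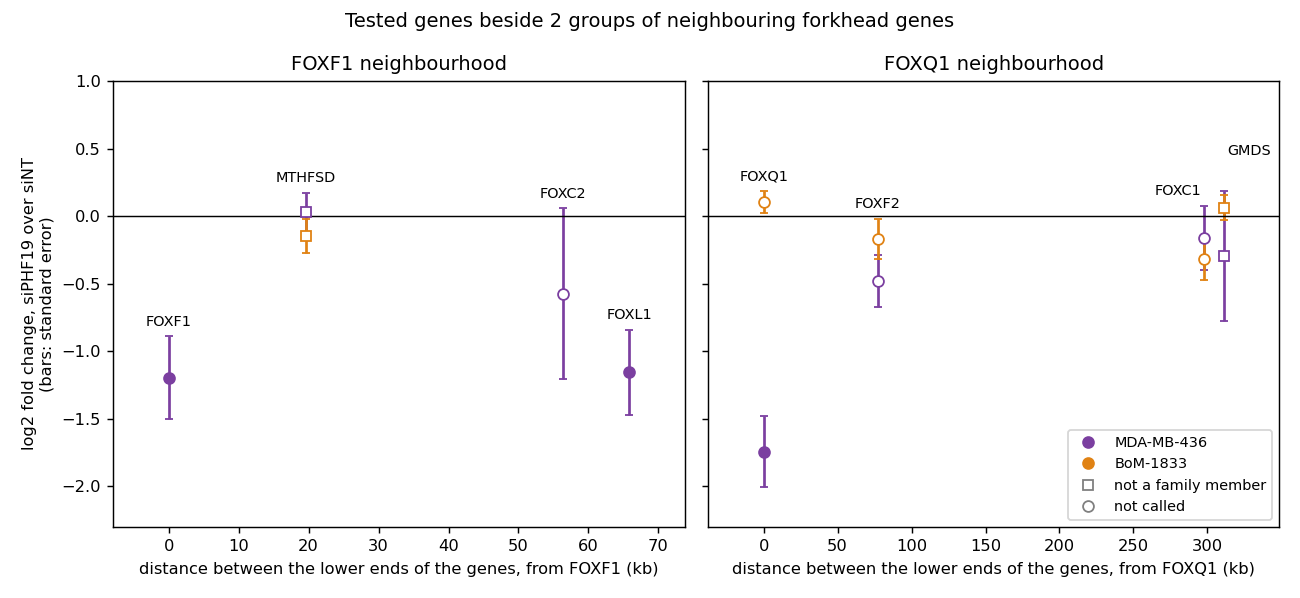
Log2 fold change of siPHF19 over siNT with its standard error (authors' deposited DESeq2 tables) for all tested genes within 500 kb of 2 groups of neighbouring forkhead genes, against the distance between the lower ends of the genes. Circles are family members and squares other genes; filled points (FOXF1, FOXL1 and FOXQ1, in MDA-MB-436) were called.

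In the SOX family, 2 of 10 tested members were called in MDA-MB-436, both lower, and 2 of 7 in BoM-1833, 1 in each direction. Beside SOX9, its close relative SOX8 had 62.2, 56.6 and 53.8 normalized counts in siNT and 27.3, 35.6 and 31.7 in siPHF19 of MDA-MB-436, without overlap (-0.86 (adjusted p 0.0202, SE 0.29), authors' deposited DESeq2 table). SOX8 had no read in BoM-1833, and SOX10, the other gene of this subgroup, none in either line. The call of SOX8 was lost in 5 of the 6 fits without 1 library (DESeq2 adjusted p up to 0.163). SOX6, which acts with SOX9 in cartilage, had 40.5, 47.03 and 55.3 in siNT and 105, 80.2 and 78.1 in siPHF19 of BoM-1833, without overlap (0.89 (adjusted p 0.0092, SE 0.26), authors' deposited DESeq2 table). That call was lost without siNT replicate 1 or 2 or siPHF19 replicate 1 (DESeq2 adjusted p up to 0.179), and SOX6 overlaps C11orf58 on the other strand.

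In the GATA family, zinc finger factors of blood, heart, gut and breast, 2 of 4 tested members were called in MDA-MB-436, both lower, and 0 of 3 in BoM-1833. The shares of all genes called were 22.1% and 10.9%. GATA5 (chromosome 20, 62463497 to 62475970, minus strand), a factor of heart and gut, had 48.03, 48.1 and 70.9 normalized counts in siNT and 22.9, 12.4 and 32.7 in siPHF19 of MDA-MB-436, and no read in BoM-1833. GATA6 (chromosome 18, 22169443 to 22202528, plus strand), which acts in endoderm and heart, had 285, 328 and 294 and 209, 181 and 213 in MDA-MB-436. Neither pair of groups overlapped, with -1.31 (adjusted p 0.00499, SE 0.38) for GATA5 and -0.59 (adjusted p 0.00031, SE 0.14) for GATA6 in the authors' deposited DESeq2 table. The call of GATA5 was lost without siNT replicate 3 or siPHF19 replicate 2 (DESeq2 adjusted p 0.0533 and 0.0981). Their relative GATA4 had 453, 584 and 604 in siNT and 577, 520.2 and 553 in siPHF19 of MDA-MB-436, which overlapped (0.01 (adjusted p 0.979, SE 0.12), authors' deposited DESeq2 table). GATA6 in BoM-1833 had 328, 331 and 339 in siNT and 357, 374 and 365 in siPHF19, higher in every siPHF19 library but not called (0.14 (adjusted p 0.579, SE 0.12), authors' deposited DESeq2 table). Of the 3 GATA members tested in BoM-1833, 0 had an unadjusted p under 0.05 by DESeq2 and 0 were called by edgeR.

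The homeobox families had 5 further calls, all in MDA-MB-436. In BoM-1833 10.9% of all genes were called, and 3 LHX, 3 MEIS, 1 PITX, 0 DLX and 0 MSX genes were tested. In MDA-MB-436 22.1% of all genes were called, and 5 LHX, 4 DLX, 3 MEIS, 2 MSX and 2 PITX genes were tested. MEIS2 had 349, 332 and 342 normalized counts in siNT and 505, 471 and 449.9 in siPHF19, without overlap (0.48 (adjusted p 0.000203, SE 0.11), authors' deposited DESeq2 table), and in BoM-1833 the groups overlapped (-0.00 (adjusted p 0.996, SE 0.16)). LHX4, a pituitary and motor neuron factor, had 104, 110.1 and 95.4 and 152, 161 and 143, also without overlap (0.55 (adjusted p 0.0128, SE 0.18), authors' deposited DESeq2 table). PITX1, which specifies hind limb and pituitary, had 624, 629 and 616 and 757, 697 and 767 (0.25 (adjusted p 0.0386, SE 0.09), authors' deposited DESeq2 table). DLX1, a factor of forebrain interneurons, fell from 363 ± 18.6 to 285 ± 24.05, and MSX1, a factor of teeth and limbs, from 928 ± 128 to 703 ± 73.5 normalized counts (SD, n = 3). The authors' deposited DESeq2 table gives them -0.35 (adjusted p 0.0297, SE 0.12) and -0.40 (adjusted p 0.00729, SE 0.12) as log2 fold changes. Of these 5 calls that of MEIS2 held in every fit without 1 library, and the others were lost in 3 (MSX1), 5 (LHX4) or 6 of the 6 (DLX1 and PITX1).

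In the T-box family, TBX18, which acts in the sinus node and epicardium, had 769.5, 822 and 921 normalized counts in siNT and 1056, 1045 and 1054 in siPHF19 of MDA-MB-436. The groups did not overlap (0.33 (adjusted p 0.00296, SE 0.09), authors' deposited DESeq2 table), and the call was lost without siNT replicate 2 (DESeq2 adjusted p 0.0656). TBX18 was silent in BoM-1833, and 0 of the 3 T-box genes tested there were called. Of the PAX genes (3 and 2 tested) and the IRX genes (2 and 1 tested), 0 were called in MDA-MB-436 or BoM-1833. Over all genes 22.1% and 10.9% were called. With so few genes tested, 0 calls do not show that a family was unresponsive. Of the T-box genes tested in BoM-1833, and of the PAX and IRX genes tested in either line, 0 had an unadjusted p under 0.05 by DESeq2. EdgeR called 0 of them. The most abundant of them, PAX8, a thyroid and kidney factor, had log2 fold changes of 0.11 (adjusted p 0.549, SE 0.12) and -0.25 (adjusted p 0.397, SE 0.16) in the authors' deposited DESeq2 tables. IRX3, which patterns limb and heart, had -0.31 (adjusted p 0.207, SE 0.17) and 0.14 (adjusted p 0.91, SE 0.40) there.

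The effect of siPHF19 differed between the lines for 4 of the 41 members tested in both, where 4.89% of 12290 genes did at an adjusted p under 0.05 (z test of the difference between the authors' deposited log2 fold changes). The difference, BoM-1833 minus MDA-MB-436, was 1.85 (SE 0.28, adjusted p 9.01e-09) for FOXQ1, 0.73 (SE 0.18, adjusted p 0.00331) for GATA6 and 0.47 (SE 0.11, adjusted p 0.00228) for SOX9. It was -0.45 (SE 0.14, adjusted p 0.0286) for FOXN3. SOX9 was thus lowered in both lines, and more in MDA-MB-436. FOXQ1 and GATA6 were lowered and FOXN3 was raised in MDA-MB-436. In BoM-1833 these 3 had log2 fold changes of 0.10, 0.14 and 0.03 and were not called. In an edgeR model over the 12 libraries FOXQ1, GATA6 and SOX9 passed and FOXN3 did not (difference -0.46, adjusted p 0.0765). For MEIS2 the difference was -0.48 (SE 0.19, adjusted p 0.141), so its change in MDA-MB-436 was not shown to differ from that in BoM-1833.

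The genes that fell were also read against a sequence in their 3′ untranslated regions (3′ UTRs). The 6 bases AAACTG, taken from earlier results of these data and therefore not independent of them, occur in the 3′ UTRs of 52.9% of all genes called lower, 46.5% of those called higher and 43.3% of those not called in MDA-MB-436. For BoM-1833 the shares are 64.8%, 38.3% and 44.4%. Among members it occurred in 7 of 12 called lower, 4 of 9 called higher and 29 of 52 not called for MDA-MB-436, and for BoM-1833 in 4 of 4, 2 of 4 and 20 of 39. The sets differ in the length of these regions, and a longer region has more positions for a match. The median length of the members called lower, called higher and not called was 1869, 2653 and 1504 bases in the former line, and 4413.5, 2228 and 1705 in the latter. Over all genes it was 1113, 1843.5 and 1180 bases, and 1682, 1408 and 1210. The search used the transcript strand of GENCODE release 29 (GRCh38). The 3 members lower in both lines carried it 4 times (FOXO3), 6 times (FOXP1) and 2 times (SOX9). The first occurrence in each, with 10 bases on either side and the 6 bases in capitals, lies at chr6:108680416-108680441 (plus strand), chr3:70958932-70958957 (minus strand) and chr17:72124658-72124683 (plus strand).
FOXO3: ccttttctaaAAACTGaacaatggca
FOXP1: taaatttgctAAACTGattcactttt
SOX9: aatcaacgagAAACTGgactttttaa
Of the other members called lower, FOXN2 carried AAACTG 4 times, FOXJ3 2 times, and FOXF1, GATA5 and MSX1 1 time. It was absent from the 3′ UTRs of FOXQ1, FOXL1, GATA6, SOX8 and DLX1. Of the members called higher, LHX4 and SOX6 carried it 3 times, FOXJ2, FOXN3 and FOXP4 2 times, and MEIS2 1 time. It was absent from FOXI1, FOXM1, PITX1, SIX2 and TBX18. PAX9, not called in either line, carried it 5 times. A match is a description of the sequence. The part of this sequence, or of region length, in the decreases was not tested.

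The other subunits of PRC2 and other developmental regulators give the surroundings of these changes. Of 13 tested PRC2 genes in MDA-MB-436, PHF19, AEBP2, SUZ12 and C17orf96 (EPOP) were lower and LCOR higher in the authors' deposited DESeq2 table. In BoM-1833, PHF19, AEBP2 and C17orf96 were lower and none of the 13 higher. These calls, PHF19 included, are 38.5% and 23.1% of the PRC2 genes tested, beside 22.1% and 10.9% of all genes. EZH2, the methyltransferase itself, had log2 fold changes of 0.14 (adjusted p 0.154, SE 0.07) and 0.20 (adjusted p 0.0757, SE 0.08) in the authors' deposited DESeq2 tables. Of 66 further developmental transcription factors outside the 12 families, 36 were tested in MDA-MB-436, where SHOX2 (0.73 (adjusted p 0.00548, SE 0.21)) and SIM1 (0.34 (adjusted p 0.00247, SE 0.09)) were higher in the authors' deposited DESeq2 table. There MNX1 (-0.96 (adjusted p 1.47e-06, SE 0.18)), PRRX1, BARX2, OLIG2, HLX and TWIST2 were lower. These 8 calls are 22.2% of the 36, beside 22.1% of all genes. Of the 33 silent ones, 21 had reads, of which 9 had a higher and 12 a lower mean in siPHF19 (42.9% higher, against 48.5% of all silent gene rows with reads). In BoM-1833 10 were tested and 56 were silent. By DESeq2 0 of the 10 were called and 1 had an unadjusted p under 0.05, and edgeR called 0. Of 14 silent ones with reads there, 9 had a higher and 5 a lower mean in siPHF19 (64.3% higher, against 49.5%).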

How the data were processed

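For each line the authors deposited DESeq2 output as 1 table. Its values per library are a signal, reads divided by the library's size factor (normalized counts), and the deposited log2 fold changes, their standard errors, the Wald score, p-values and adjusted p-values are the authors' own. Per the submitters' processing notes STAR, RSEM 1.3.1, DESeq2 1.46.0 and hg38 were used. The annotation, the use of strand and filters are not given in the sources used here.

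Calls are genes whose adjusted p is under 0.05 over all tested genes. Values were whole multiples of 1 step per library (100% within 0.01 of a read), so reads were recovered, and a DESeq2 1.42.0 refit gave the deposited calls exactly (3143 and 1411). Alternatives used edgeR 4.0.16 (quasi-likelihood), other size factors and filters, a replicate block and each library left out. On simulated data, DESeq2 was tested with its own and other size factors and with the block. EdgeR was tested there with its filter, without it and with the block, and so was the z test. Fits without 1 library, DESeq2 without its filter and the edgeR model over the 12 libraries were not so tested. Differences between lines used a 2-sided z test with Benjamini-Hochberg adjustment over 12290 genes. Replicate pairs differed by more than sampling noise, and more so in siNT than in siPHF19. The chi-square per degree of freedom was 5.92 to 24.1 for siNT pairs and 2.29 to 3.45 for siPHF19 pairs. Positions and exon lengths come from GENCODE 29 (GRCh38).

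Named members are those called in a line, the most abundant of each family, those that differ between lines, silent ones whose group means differ by at least 3, and those nearest the mean of 10. Values of other genes, and of other members given as examples of a state, were chosen after they were seen. The values of 1 member are not reported here. Members and lists were chosen with earlier results of these data known. Per table, a total of 28 date-like gene names were kept in the counts, and 0 columns belonged to no sample.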

Additional observations from a re-analysis of the deposited data

Results flagged for a closer look

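For 4 members the effect of siPHF19 differed between the lines by the z test, with the difference given as BoM-1833 minus MDA-MB-436 on the log2 scale. It was 1.85 for FOXQ1 (adjusted p 9.01e-09), with 3 of 3 siPHF19 libraries below all siNT libraries in MDA-MB-436 and overlapping groups in BoM-1833. It was 0.47 for SOX9 (adjusted p 0.00228), which was lower in 3 of 3 siPHF19 libraries of each line. For GATA6 it was 0.73 (adjusted p 0.00331), with siPHF19 libraries below the siNT libraries in MDA-MB-436 and above them in BoM-1833. FOXN3 had a difference of -0.45 (adjusted p 0.0286), being higher in 3 of 3 siPHF19 libraries of MDA-MB-436 with overlapping groups in BoM-1833. Groups of 3 libraries were too small to look for single outlying libraries.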

How the results depend on the processing

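Of the 30 calls, 10 held in all 13 refits: FOXF1, FOXN3, FOXO3, FOXQ1, GATA6, MEIS2 and SOX9 in MDA-MB-436, and FOXO3, FOXP1 and SIX2 in BoM-1833. The other 20 were lost in at least 1 refit, and none of the 30 changed direction in any. In MDA-MB-436 the 21 calls became 13 at an adjusted p under 0.01 and 5 with a log2 fold change of at least 1 in size, in BoM-1833 the 9 calls became 0 with the latter. Fits without 1 library gave 9 to 19 calls for MDA-MB-436 and 4 to 10 for BoM-1833, while the share of all genes called ran from 12.9% to 26.9% and from 5.99% to 17.03%. The edgeR fit with its filter kept all 21 calls in MDA-MB-436 and added FOXA1, FOXF2, FOXP2 and SOX15. The replicate numbers did not pair the libraries (correlations of same-numbered libraries -0.31 to 0.04). With the replicate block DESeq2 called 11 and 3 members (and 11.9% and 5.002% of all genes) and edgeR 16 and 5, and 2 members (FOXQ1 and GATA6) differed between lines; the cause was not tested. The share of silent members with a higher mean in siPHF19 had extremes over the alternatives of 37.9% and 66.7% for MDA-MB-436 and of 34.6% and 52.0% for BoM-1833. All lay within the Wilson interval of that line. That interval is wide, and the alternatives reuse the same libraries and mostly the same members, so this is no independent check. Taking as silent the members with a siNT mean under 10 favours gains by construction and gave 58.6% and 45.2%. Low counts limit what can be seen: silent members mostly had no adjusted p.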
